A study of Mus musculus with 8 samples.

Results

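The erythroid genes described here were Gata1, Klf1, Nfe2, Epor, Alas2, Slc4a1 and Tfrc, 7 of the 22380 protein-coding genes of the GENCODE vM1 annotation on the mouse genome build mm9. They were chosen by name, and each gene was examined for open chromatin at its start sites, within 1000 bases of any annotated start, and over the whole gene with 10 kb on either side. The assay was ATAC-seq: Tn5 transposase enters accessible chromatin and leaves sequencing adapters where it cuts. By the labels, all libraries came from wild type C57BL/6J mice aged 6 weeks, without any treatment named, and the cells were stromal cells of the bone marrow. The study's methods name C57BL/6JJcl mice and a line with EGFP in all cells, both in an age range that starts at 6 weeks, and do not say which gave the ATAC-seq cells. There were 7 ATAC libraries, titled ATAC1 to ATAC7, and 1 Input library that served as the control for all of them. The labels do not tie a title to one of the sorted stromal populations of the study, nor do they say how many mice gave a library, so libraries are named by title. Each title had 1 library, so no value below has a replicate and no difference between libraries was tested. According to the study's sorting protocol, cells carrying CD31, CD45 or TER119 were gated out, and TER119 is a surface marker of red cell precursors.

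Erythroid cells are the precursors of red blood cells in the bone marrow. GATA1 switches on most red cell genes together with KLF1, which binds CACCC boxes, and NF-E2, which binds the enhancers of the globin genes. Erythropoietin acting through its receptor keeps the precursors alive, while transferrin receptor brings in the iron and ALAS2 starts the synthesis of haem, and band 3, made from Slc4a1, anchors the membrane to its skeleton. Of these genes, Tfrc is used by dividing cells of nearly every type, whereas Alas2 and Slc4a1 are known as genes of late red cell precursors.

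A choice of regions at these genes is printed first, made after their calls and letters were seen. The capitals mark matches to the GATA letters, AGATAA or TGATAA on either strand, so that a match on the opposite strand reads TTATCT or TTATCA. Each sequence was read 5′ to 3′ along the strand of its gene from the NCBIM37 (mm9) genome. Annotated untranslated parts of exons were left out, and the longest remaining stretch was cut to at most 300 bases. The first 6 were called in some of the libraries and are shown because they hold a match. The second Alas2 region and the Tfrc region are shown for comparison because they hold none. Other regions called in some of the libraries alone, such as the upstream regions of Slc4a1, hold no match either and are not printed. The region at the outermost Nfe2 start, called in all libraries, holds 2 matches over its 489 bases and is not printed either. The printed choice therefore does not show how matches and calls go together.
Alas2 intron, chrX:146984381-146984531, plus strand: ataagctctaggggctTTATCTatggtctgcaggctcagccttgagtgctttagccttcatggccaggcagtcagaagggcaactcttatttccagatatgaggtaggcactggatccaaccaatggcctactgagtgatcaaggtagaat
Slc4a1 intron, chr11:102225047-102225218, minus strand: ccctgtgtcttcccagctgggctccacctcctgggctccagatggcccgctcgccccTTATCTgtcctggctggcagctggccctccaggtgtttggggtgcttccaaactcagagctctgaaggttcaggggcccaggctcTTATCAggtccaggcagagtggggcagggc
Slc4a1 inner start, upstream end of the region, chr11:102226595-102226610, minus strand: gggtgagAGATAActc
Nfe2 inner start, chr15:103082183-103082482, minus strand: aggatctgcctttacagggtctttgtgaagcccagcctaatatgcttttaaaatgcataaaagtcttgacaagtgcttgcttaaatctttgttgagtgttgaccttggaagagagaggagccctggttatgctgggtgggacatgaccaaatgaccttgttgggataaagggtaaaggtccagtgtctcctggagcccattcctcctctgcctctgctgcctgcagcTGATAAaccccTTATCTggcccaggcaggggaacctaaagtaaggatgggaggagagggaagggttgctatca
Klf1 start, the part before the gene, chr8:87425739-87425826, plus strand: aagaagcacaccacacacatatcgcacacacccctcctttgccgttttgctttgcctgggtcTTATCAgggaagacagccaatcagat
Epor start, the part before the gene, chr9:21768021-21768107, minus strand: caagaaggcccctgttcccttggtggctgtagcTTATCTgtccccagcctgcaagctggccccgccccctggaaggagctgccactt
second Alas2 intron region, chrX:146999359-146999474, plus strand: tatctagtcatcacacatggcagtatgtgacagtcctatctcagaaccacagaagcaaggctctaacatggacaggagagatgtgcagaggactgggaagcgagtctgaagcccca
Tfrc start, the part before the gene, chr16:32608621-32608920, plus strand: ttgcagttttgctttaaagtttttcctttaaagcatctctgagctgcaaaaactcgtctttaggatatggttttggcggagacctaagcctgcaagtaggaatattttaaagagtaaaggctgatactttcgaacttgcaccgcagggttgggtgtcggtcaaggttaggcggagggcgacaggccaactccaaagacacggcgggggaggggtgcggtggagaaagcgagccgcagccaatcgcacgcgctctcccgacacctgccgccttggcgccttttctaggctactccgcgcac

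The Input-controlled peak lists held 15188 peaks in ATAC7, 15650 in ATAC4, 16027 in ATAC3, 24510 in ATAC1, 28969 in ATAC6, 31479 in ATAC5 and 32280 in ATAC2. The tables have no column names, and from their values 3 columns were read as the reads of the library and of Input over an outer region around the peak and as a fold over Input with a scale factor for each library. The total number of reads is unknown, since the tables hold peaks alone. Brackets after a fold give its exact 95% binomial interval, which covers counting error only. Of 10 stromal marker genes, 6 had a start-site peak in each of ATAC2, ATAC5, ATAC6 and ATAC7, against 3 in ATAC1 and 2 each in ATAC3 and ATAC4. The share of all protein-coding genes with such a peak was 50.4%, 52.9%, 51.6% and 42.1% in the first 4 of these libraries and 49.1%, 43.6% and 43.7% in the last 3.

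The erythroid genes were open most often in ATAC1 and ATAC4. A start-site peak was called at 5 of the 7 genes in ATAC1, where 49.1% of all protein-coding genes had one, and at 5 in ATAC4, where the share was 43.7%. ATAC6 had a peak at 4 of them (51.6% of all genes). ATAC2 and ATAC5 had peaks at 3 (50.4% and 52.9%), and ATAC3 and ATAC7 at 2 (43.6% and 42.1%). ATAC4 reached the count of ATAC1 with the second shortest peak list of the series, but had 4 genes against 5 at a start-site distance of 500 bases. The lead over ATAC6 was lost under some settings: ATAC6 also had 5 genes when outer regions stood for peaks, and ATAC4 and ATAC6 had 4 each at a fold of at least 5. In all, 24 of the 49 pairs of gene and library had a start-site peak.

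With flanks of 20 kb, ATAC1, ATAC4 and ATAC6 each had a peak at all 7 genes. Counted in or within 10 kb of the gene, a peak was found at 6 genes in ATAC1 and in ATAC4, where 60.1% and 53.3% of all protein-coding genes had one. ATAC6 had 5 (63.8%), and ATAC2, ATAC3, ATAC5 and ATAC7 had 4 each (63.8%, 53.5%, 65.1% and 52.2%). These windows held 97 peaks, of which 40 lay at a start site of the erythroid gene, 15 elsewhere in it and 42 in its flanks. Of the 42 flank peaks, 39 lay within 1000 bases of a start site of another gene, so nearly all of them belonged to neighbours such as Gcdh and Dnase2a beside Klf1, Hnrnpa1 and Cbx5 beside Nfe2, and 2310047B19Rik beside Epor. The window counts therefore say little of the erythroid genes beyond the start-site and gene-body peaks.

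**Figure D1:**
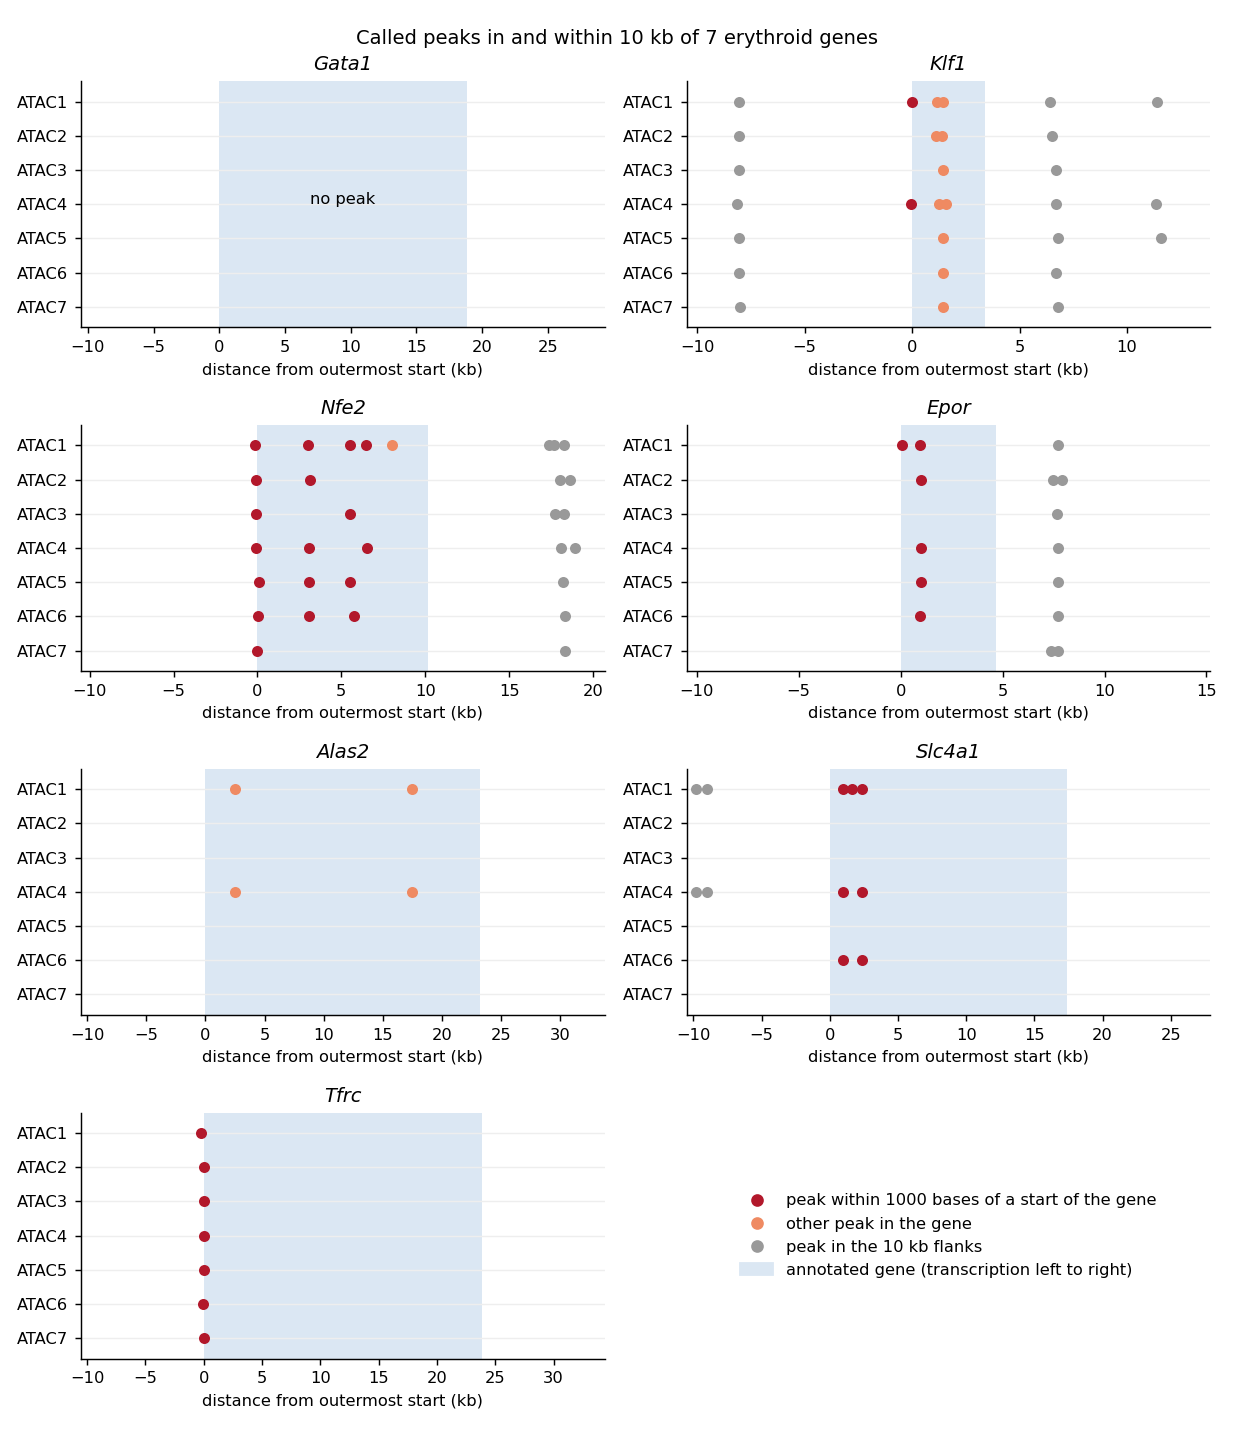
Positions of all 97 called peaks around the 7 erythroid genes, with distance from the outermost annotated start in kb on the x axis and the 7 libraries on the y axis. Each point is the centre of 1 peak, coloured by whether it lay at a start site of the gene, elsewhere in it or in the 10 kb flanks, and shading marks the gene; Alas2 and Slc4a1 show points in ATAC1 and ATAC4 and, for Slc4a1, in ATAC6, while Tfrc shows 1 point in every library.

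Gata1 encodes the zinc finger factor that gives the lineage its identity, and it lies on chromosome X from 7536386 to 7555197 on the minus strand. No library had a peak in the gene or within 10 kb of it, so the factor's own locus was not called open anywhere. The nearest peaks on the downstream side lay 11180 to 11311 bases from the gene in the 7 libraries, and those on the upstream side lay 96278 to 96633 bases away. Both distances were alike in all libraries. No reads are listed outside peaks, and the openness of Gata1 below the calling threshold was therefore not measurable here.

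Klf1, which encodes the factor of the CACCC boxes, lies on chromosome 8 from 87425827 to 87429194 on the plus strand and has 1 annotated start. The start was called open in ATAC1, with 92 reads against 22 of Input and a fold of 5.13 (3.2 to 8.59), and in ATAC4, with 76 reads against 22 and a fold of 3.91 (2.41 to 6.6). No peak was called there in the other 5 libraries. Both peaks were weak: they were 0.672 and 0.656 times the median fold of start-site peaks in their libraries, and ranked in the lower part of the lists, at 58.0% and 82.1% of the way down. At the fold of ATAC1, the same region would have held 66.0 to 112 reads in the libraries without a call, and 19.7% to 31.8% of the peaks called in those libraries held no more reads than that.

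A different stretch of Klf1 was open in all 7 libraries. It covers 606 bases, overlaps a coding exon and is centred 1304 bases after the start. Its nearest edge lies 1002 bases from the start, just outside the 1000 bases counted as the start site. The best-ranked peak there had a fold of 9.24 (7.41 to 11.6) in ATAC6, 7.78 (6.21 to 9.83) in ATAC5, 5.95 (4.6 to 7.8) in ATAC1, 5.02 (3.71 to 6.88) in ATAC2, 4.47 (3.15 to 6.5) in ATAC4, 3.73 (2.8 to 5.02) in ATAC3 and 3.51 (2.62 to 4.76) in ATAC7. ATAC1 and ATAC4 also had a second peak there, as had ATAC2, and that of ATAC4 had a fold of 5.57. Against the median fold of start-site peaks of each library, the best-ranked exon peak was 0.898 times in ATAC6, 0.779 in ATAC1, 0.75 in ATAC4, 0.718 in ATAC5, 0.67 in ATAC3, 0.62 in ATAC7 and 0.617 in ATAC2. The order of the libraries at the exon thus depended on the scale. The exon region is rich in G and C, at 70.0% of the 300 bases round its centre, and holds no GATA match there, whereas the start region has 1 match and 51.7% G and C.

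Nfe2 encodes the larger subunit of NF-E2 and lies on chromosome 15 from 103078643 to 103088834 on the minus strand, with 10 annotated starts. Its outermost start was open in every library. The peak held 655 reads in ATAC1, 465 in ATAC4, 382 in ATAC6, 350 in ATAC3, 273 in ATAC5, 137 in ATAC2 and 120 in ATAC7, against 24 to 39 Input reads. The folds were 20.6 (14.9 to 29.3) in ATAC1, 18.8 (13.1 to 27.9) in ATAC6, 13.9 (9.95 to 19.8) in ATAC4, 13.4 (9.37 to 19.6) in ATAC5, 10.1 (7.12 to 14.7) in ATAC3, 9.02 (5.82 to 14.6) in ATAC2 and 5.52 (3.54 to 8.95) in ATAC7. Since the typical fold differed between libraries, each was also set against the median fold of all start-site peaks of its library. On that scale ATAC1 was highest at 2.7 times the median and ATAC4 next at 2.32 times. ATAC6 and ATAC3 followed at 1.83 and 1.81 times, then ATAC5 at 1.23, ATAC2 at 1.11 and ATAC7 at 0.975. The Nfe2 start was also among the best-ranked start-site peaks of the erythroid genes, at 12.6% of the list in ATAC1 and 13.7% in ATAC4.

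Inside Nfe2 the libraries diverged. A region near inner starts, centred 6501 bases after the outermost start and lying in an intron, was called in ATAC1 and ATAC4 and in no other library. It held 135 reads against 10 of Input in ATAC1, a fold of 16.6 (8.74 to 35.4), and 125 against 11 in ATAC4, a fold of 12.9 (6.95 to 26.4). This is the printed Nfe2 stretch, in which 2 GATA matches stand within a few bases of each other on opposite strands. A region at 3090 bases was called in ATAC1, ATAC2, ATAC4, ATAC5 and ATAC6, with folds of 3.02 to 5.49. A further region at 5676 bases was called in ATAC1, ATAC3, ATAC5 and ATAC6, where ATAC1 had 154 reads against 6 of Input and a fold of 31.5 (14.2 to 87.2), an interval made wide by the few Input reads. A short peak at 8014 bases was called in ATAC1 with 54 reads against 11.

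Epor encodes the erythropoietin receptor and lies on chromosome 9 from 21763343 to 21768020 on the minus strand, with 1 annotated start. The start itself was called in ATAC1 alone, with 79 reads against 17 of Input and a fold of 5.71 (3.35 to 10.3). A second region lay within the first 1000 bases, centred in an intron 950 bases after the start, and was called in 5 libraries. It held 147 reads against 25 of Input in ATAC1, 146 against 26 in ATAC6, 112 against 23 in ATAC4, 48 against 15 in ATAC2 and 47 against 15 in ATAC5. The folds ran from 5.05 in ATAC2 to 8.84 in ATAC6, and the 5 counting intervals all overlapped. ATAC3 and ATAC7 had no peak at either Epor region. The printed stretch before the Epor start holds 1 GATA match and 2 CACCC boxes, and the intron region holds no GATA match in its 300 bases.

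Alas2 encodes the red cell form of the enzyme that makes the first intermediate of haem, and lies on chromosome X from 146981918 to 147005181 on the plus strand. None of its 4 starts had a peak in any library. Its only open regions were 2 intronic ones, and both were called in ATAC1 and ATAC4 and nowhere else. The region centred 2538 bases after the outermost start held 138 reads against 7 of Input in ATAC1, a fold of 24.2 (11.4 to 61.4), and 106 against 7 in ATAC4, a fold of 17.1 (8.04 to 43.7). These folds were 3.16 and 2.87 times the median fold of start-site peaks in the respective library. The region centred at 17498 bases held 90 reads in ATAC1 and 46 in ATAC4 against 0 of Input, so no fold is given. Both regions also lie inside the annotated span of the neighbouring Apex2 gene, whose start is 36219 and 21276 bases away.

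The missing calls at the first Alas2 region were set against depth. At the fold of ATAC1, the region would have held 107 reads in ATAC2, 168 in ATAC3, 99.0 in ATAC5, 108 in ATAC6 and 154 in ATAC7. Peaks with no more reads than that made up 39.9% to 51.4% of the lists of these libraries, whose weakest peaks held 21 to 28 reads. For a weak region the margin was smaller: for the Nfe2 peak at 8014 bases, 2.17% to 8.03% of the peaks of the other libraries held no more reads than it would have held there at the fold of ATAC1. The part of depth in the missing calls was not tested.

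Slc4a1 encodes band 3, the anion exchanger and chief membrane protein of the red cell, and lies on chromosome 11 from 102210138 to 102227517 on the minus strand, with 5 annotated starts. It was open in ATAC1, ATAC4 and ATAC6 and had no peak within 10 kb in ATAC2, ATAC3, ATAC5 or ATAC7. The region at its inner start, centred 981 bases after the outermost one, held 232 reads against 20 of Input in ATAC1, a fold of 14.2 (9.02 to 23.8). It held 176 against 18 in ATAC4, a fold of 11.1 (6.8 to 19.1), and 69 against 12 in ATAC6, a fold of 9.05 (4.87 to 18.4). The order of the 3 libraries is not settled by these values, since the intervals overlap.

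The intronic region of Slc4a1 at 2385 bases was called in the same libraries. The peak held 202 reads against 32 of Input in ATAC1, a fold of 7.75 (5.32 to 11.6), 227 against 33 in ATAC4, a fold of 7.79 (5.39 to 11.6), and 69 against 20 in ATAC6, a fold of 5.43 (3.26 to 9.44). Between these regions, ATAC1 had a further peak at 1618 bases, with 99 reads against 16 and a fold of 7.6 (4.46 to 13.8). Upstream of the gene, regions centred at -9006 and -9783 bases from the outermost start were called in ATAC1 and ATAC4, with folds of 9.07 and 7.69 in ATAC1 and 6.6 and 5.84 in ATAC4. The nearest start of another gene, that of Gm11616, lay 1629 and 994 bases away.

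Tfrc encodes the transferrin receptor and lies on chromosome 16 from 32609006 to 32632880 on the plus strand. It had 1 open region, at its start, and this was called in all 7 libraries. The peak held 719 reads in ATAC6, 521 in ATAC5, 478 in ATAC1, 388 in ATAC4, 307 in ATAC3, 227 in ATAC7 and 212 in ATAC2, against 44 to 58 Input reads. The folds were 20.6 (15.6 to 27.6) in ATAC6, 17.8 (13.3 to 24.4) in ATAC5, 10.1 (7.7 to 13.5) in ATAC1, 8.96 (6.65 to 12.3) in ATAC4, 6.98 (5.08 to 9.76) in ATAC2, 6.73 (4.93 to 9.39) in ATAC3 and 5.7 (4.11 to 8.06) in ATAC7. ATAC6 and ATAC5 had the highest folds, and both libraries also had high folds in general. Against the median start-site fold of each library, the same peak was 2.0 times in ATAC6, 1.65 in ATAC5, 1.5 in ATAC4, 1.32 in ATAC1, 1.21 in ATAC3, 1.01 in ATAC7 and 0.858 in ATAC2. Tfrc therefore did not share the order of Nfe2, where ATAC1 and ATAC4 came first on this scale.

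**Figure D2:**
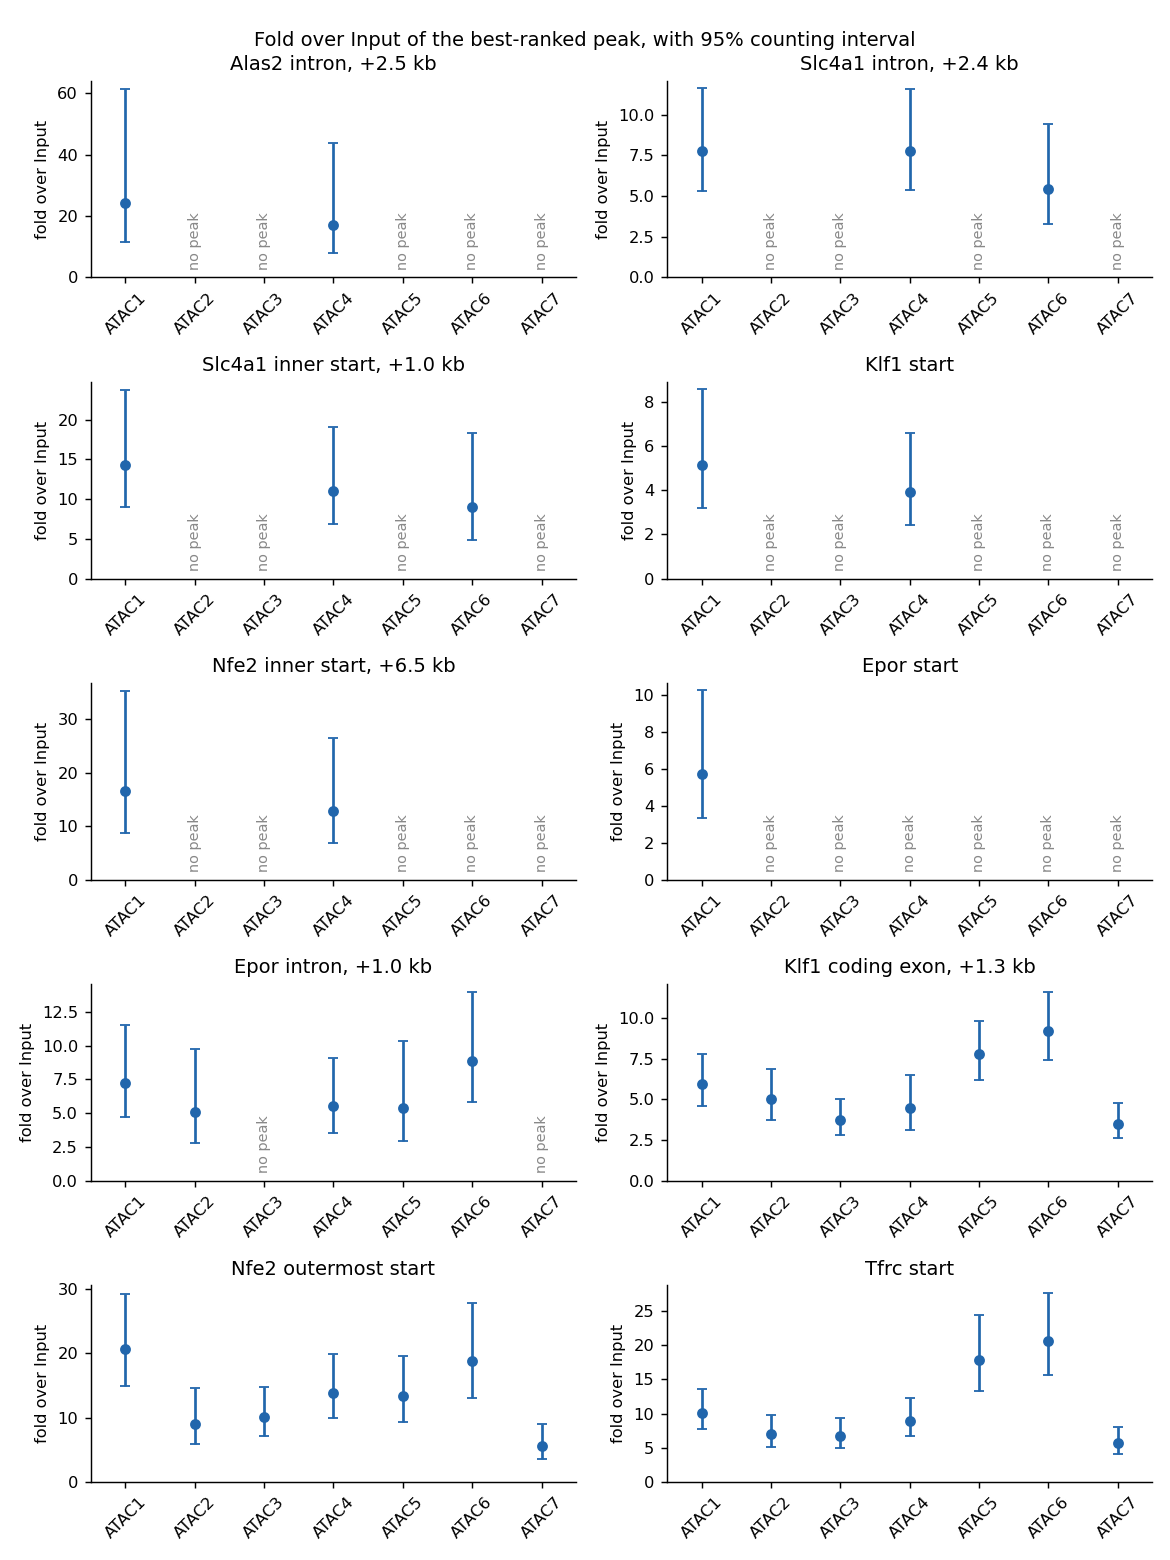
Fold over Input (y axis, linear, starting at 0) by library (x axis) at 10 regions of the erythroid genes, as the best-ranked peak of each library with its exact 95% counting interval. Where a library had no peak the panel says so; the Alas2 intron, Klf1 start and inner Nfe2 start have values in ATAC1 and ATAC4, both Slc4a1 regions in ATAC1, ATAC4 and ATAC6, and the outermost Nfe2 start and the Tfrc start in all 7 libraries.

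Tfrc also stood apart in the base composition of its promoter. From 250 bases before to 50 after the outermost start, the Tfrc promoter had 67.0% G and C and 0.922 times the number of CpG expected from its bases, higher than in 86.6% of 22375 promoters. The other 6 promoters had between 0.174 times (Klf1) and 0.405 times (Gata1), below the median of 0.534. The Nfe2 start was called in all libraries as well, with a CpG content of 0.243 times the expected number, so the all-library call was not limited to the CpG-rich promoter. The GATA letters occurred once each in the promoter windows of Klf1, Nfe2, Epor and Alas2, and in 17.0% of all promoters.

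Peaks that overlapped between libraries were merged, which gave 30 regions in the windows of the erythroid genes out of 50683 in the whole series. Of these, 15 lay at a start site or in the gene. A pattern was then defined after these values had been seen: called in ATAC1 and ATAC4, with or without ATAC6, and in none of ATAC2, ATAC3, ATAC5 and ATAC7. It held for 8 of the 30 regions, or 26.7%, and for 6 of the 15 at start sites or in the genes. Among all regions of the series it held for 726, or 1.43%, and among 19799 regions at start sites for 177, or 0.894%. Regions called in all 7 libraries were 7 of the 30 (23.3%) against 16.6% of all regions, but 4 of the 7 lay in flanks, and at start sites or in the genes they were 3 of 15 against 35.9% of regions at start sites. Regions called in ATAC2, ATAC5 or ATAC6 and in none of the others, which made up 47.2% of the series and 25.7% of its regions at start sites, were 3 of the 30 and 0 of the 15 at start sites or in the genes. As the pattern was drawn from these genes, the counts describe them and are no test.

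Seen by gene, the start-site calls of 50 protein-coding genes, 0.223% of all, had the ATAC1 and ATAC4 pattern, and Klf1 and Slc4a1 were 2 of them. For Klf1 this rests on the settings: its start-site calls came from 7 libraries with a distance of 2000 bases, which takes in the exon region, from 5 with outer regions in place of peaks and from 1 at a fold of at least 5.

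The other genes of red cell biology were taken from 6 lists with 62 genes found in the annotation. Most genes of 3 of the lists were open in nearly all libraries. Of 10 further genes of haem synthesis, all 10 had a start-site peak in every library except ATAC7, which had 9. Among the best-ranked were Ppox and Cpox, enzymes of later steps of the pathway. Ppox had folds of 17.4 in ATAC1 and 13.3 in ATAC4 against 10.1 to 24.4 in the other libraries. Of 10 iron handling genes, 7 to 9 were open, led by Slc25a37, the iron carrier of mitochondria, Aco1 and the ferritin gene Fth1. Of 9 genes of erythropoietin signalling, 7 to 9 were open, led by Bcl2l1, a survival gene, Jak2, the kinase bound to the receptor, and Epo itself, each with a start-site peak in all 7 libraries.

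Of 12 genes of erythroid transcription, 9 had a start-site peak in ATAC1 and 10 in ATAC4, against 11 in ATAC5, 10 in ATAC6, 8 in ATAC2, 8 in ATAC3 and 6 in ATAC7. This list therefore did not set ATAC1 and ATAC4 apart. Its best-ranked genes were Zbtb7a and Foxo3, open in all libraries, and Zfpm1, the partner of GATA1 known as FOG1, which had a start-site peak in ATAC2, ATAC5 and ATAC7.

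The list of red cell membrane genes was the one that differed most in number between libraries. Of 14 genes, 12 had a start-site peak in ATAC1, 11 in ATAC4 and 9 in ATAC6, against 6 in ATAC5, 4 in ATAC2, 3 in ATAC3 and 3 in ATAC7. Among the best-ranked were Epb4.1 and Spnb1, which encode an adaptor of the membrane skeleton and erythroid beta spectrin. Epb4.1 was open in all libraries, with folds of 13.3 in ATAC1 and 10.7 in ATAC4 against 9.9 to 17.2 elsewhere. A group of 4 genes of this list, named after their values were seen, had the ATAC1 and ATAC4 pattern: Kel, Spna1, Add2 and Ermap. Spna1, which encodes erythroid alpha spectrin, held 256 reads against 12 of Input in ATAC1, 71 against 5 in ATAC4 and 52 against 4 in ATAC6. Its folds were 26.19 in ATAC1, 20.42 in ATAC6 and 16.05 in ATAC4, so ATAC6 lay above ATAC4 on that scale.

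The globin genes Hbb-b1 and Hbb-b2, which encode adult beta globin, were open in ATAC1, ATAC4 and ATAC6 alone. The Hbb-b1 start held 248 reads against 12 of Input in ATAC1, a fold of 25.4, 243 against 12 in ATAC4, a fold of 22.9, and 70 against 9 in ATAC6, a fold of 12.2. At Hbb-b2 the reads were 130 against 10, 90 against 7 and 50 against 7. The adult globin genes are near-identical copies, and how reads that match both were placed is not stated, so these values are uncertain. At the other 5 globin genes found, no library had a peak near the start. Within 10 kb there were peaks at Hba-x in all 7 libraries, at Hbb-y in 5 and at Hba-a1 in ATAC1 and ATAC4. Whether these peaks belong to neighbouring genes was not examined, so they do not show that the globin genes themselves were open. In all, 6 of the 62 further erythroid genes had the pattern at their start sites, where 0.223% of all protein-coding genes had it, and 9 within 10 kb, where 0.299% had it. Of 48 genes on lists for megakaryocytes, myeloid cells, B lymphoid cells, stroma and endothelium, 0 had it by either count. That is near the low shares of all protein-coding genes, so it does not set those lists apart.

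Markers of other cell types were counted in the same way. Of 8 megakaryocyte genes, 1 or 2 had a start-site peak in each library, and of 10 myeloid genes 2 to 4. Of 10 B lymphoid genes, 4 were open in ATAC1 and 1 to 3 elsewhere, and of 10 endothelial genes, 4 were open in ATAC5, 2 in ATAC2, 1 in ATAC6 and 0 in the rest. In ATAC1 and ATAC4, where the red cell genes were open most often, the stromal counts were thus among the lowest, at 3 and 2 of 10. In ATAC3 the stromal count was 2 as well and the red cell membrane count was 3, and in ATAC6 the stromal count was 6, as high as in any library, with a red cell membrane count of 9, so a low stromal count and a high red cell count did not always go together. What part cells left over from sorting had in the red cell peaks was not tested.

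**Figure D3:**
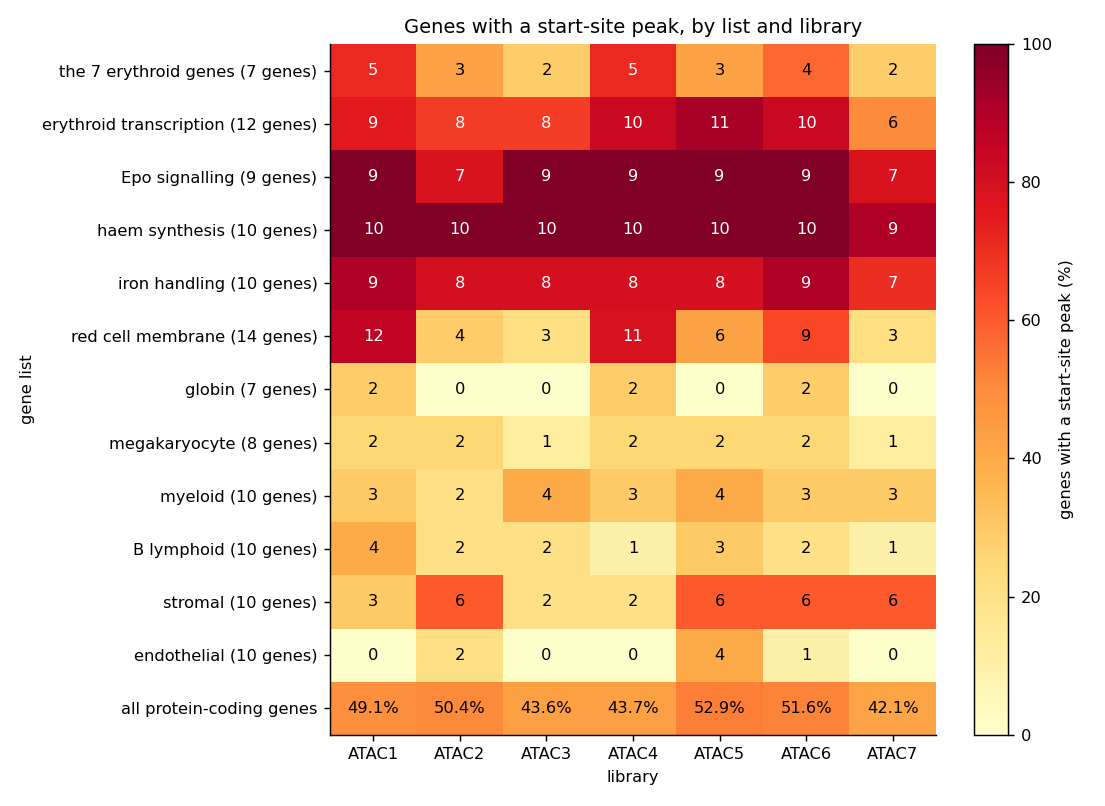
Number of genes with a start-site peak (figures in the cells) for each gene list (rows) and library (columns), with the colour giving the percent of the list from 0 to 100. The bottom row gives the percent of all protein-coding genes; the red cell membrane row runs from 12 of 14 in ATAC1 to 3 in ATAC3 and ATAC7, while the haem synthesis row stays at 9 or 10 of 10.

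Motifs were counted in 300 bases round the centre of each region, on both strands. The letters were AGATAA and TGATAA for GATA factors, CCNCNCCC for the CACCC box, CANNTG for the E box, TGAGTCA for the core shared by NF-E2 and AP-1, CCGGAA for Ets factors and GGGCGG for the GC box. The GC box may overlap a CACCC box. The GATA letters were found in 6 of the 15 regions at start sites or in the erythroid genes (40.0%) and in 0 of the 15 flank regions, against 13.8% of all regions and 8.78% of those at start sites. Of the 8 erythroid gene regions with the ATAC1 and ATAC4 pattern, 5 had a match: the first Alas2 region, both Slc4a1 regions shared with ATAC6, the inner Nfe2 region and the Klf1 start. The 7 regions called in all libraries had none in their 300 bases, although the wider Nfe2 start region of 489 bases holds 2.

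The same letters were then counted in regions of the series that shared the pattern but lay away from the 7 genes. Of 718 such regions, 473 held a GATA match, or 65.9%. Over all 726 regions with the pattern, the 7 genes included, the share was 49.2% at start sites and 71.2% elsewhere. It was 28.0% in regions called in ATAC1 alone, 15.7% in ATAC5 alone, 11.5% in ATAC2 alone, 9.57% in those called in exactly ATAC2, ATAC5 and ATAC6, and 5.86% in those called in all 7 libraries. The median content of G and C was 49.3% in the pattern regions away from start sites, 49.7% in regions called in ATAC2 alone and 65.3% in those called in all libraries. No comparison matched on base content was made.

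Of the other letters, the E box was also more frequent in the pattern regions, at 85.0% against 73.6% of all regions. Away from start sites its shares were 86.9% and 80.9%, and all 8 erythroid gene regions with the pattern held it. Ets letters were found in 3.86% of the pattern regions against 12.2% of all regions, and the GC box in 15.7% against 31.0%. TGAGTCA was found in 8.82% of the 726 regions with the ATAC1 and ATAC4 pattern, against 30.2% of those called in exactly ATAC2, ATAC5 and ATAC6 and 16.7% of all regions. At the erythroid genes it occurred in 1 of the 15 regions at start sites or in the genes, the inner Slc4a1 start, and in 2 of the 15 flank regions. Of the 8 erythroid gene regions with the pattern, 2 held it (25.0%), so these few regions did not share the low share of the pattern regions. The CACCC box was found in 38.4% of the pattern regions and 46.7% of all regions. Away from start sites the shares were 36.1% and 34.5%, so the order turned. At start sites or in the erythroid genes it was found in 11 of the 15 regions (73.3%), near the 65.8% of all regions at start sites. These are counts of letters and do not say that a factor was bound.

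**Figure D4:**
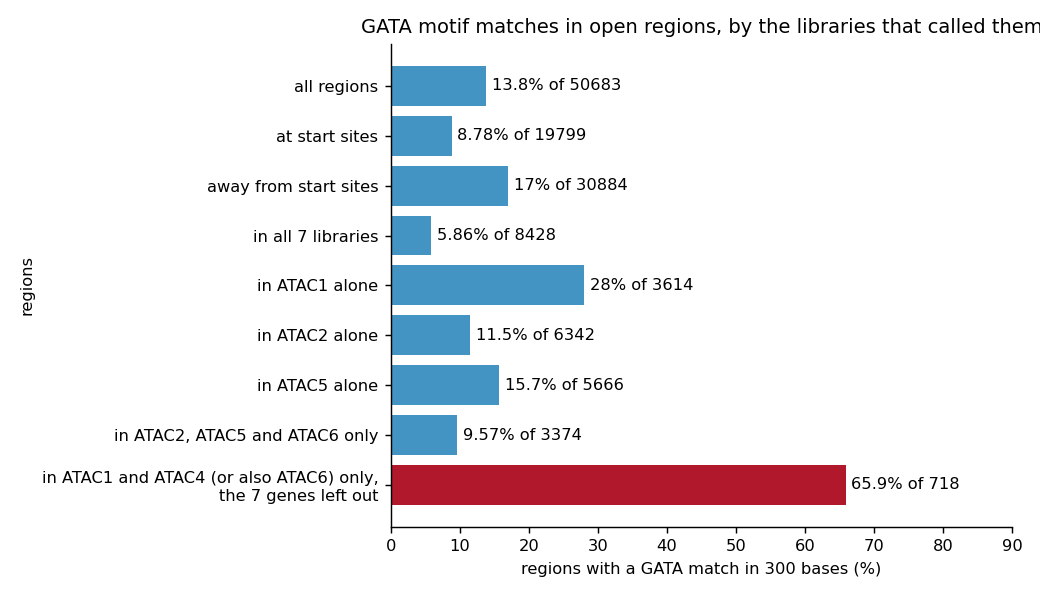
Percent of open regions with a GATA match in the 300 bases round their centre (x axis, from 0) for sets of regions defined by where they lie or which libraries called them (y axis), with the number of regions beside each bar. The bar for regions called in ATAC1 and ATAC4, or also ATAC6, reaches 65.9% with the 7 genes left out, against 5.86% to 28.0% for the other sets.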

How the data were processed

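Per the labels and the study's methods, the authors mapped ATAC-seq reads on mm9 by bowtie, and each library was compared with Input by the two-sample peak caller of CisGenome, at a p-value limit of 1e-05 and an FDR under 0.01. The submitters' processing notes also name DiffBind and bedtools. A shift of reads for the transposase or a filter on duplicates is not stated. The deposited tables name no columns; judged by the values, these hold, over a wider outer region of every peak, the library and Input read counts, 2 columns of signal that rank it, and the authors' fold, a ratio equal to a scale factor times the library reads over Input reads plus 0.01. The factor, recovered from the counts, was constant within each library to 0.0398%, and ran from 1.009 in ATAC3 to 1.713 in ATAC5. The deposited coordinate lists equal the tables in all 164103 peaks and were not used further.

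Peaks were assigned to genes on a shared base, with starts from all GENCODE vM1 transcripts. Exact binomial (Clopper-Pearson) intervals of the fold came from library and Input reads. Python 3.11.15, pandas 2.3.3, scipy 1.17.1, pysam 0.24.0 and samtools 1.23.1 were used, and overlap and motif counting were tested on simulated data. Of 118 listed symbols, 1 was not found and 2 were matched by an older name. All 7 erythroid genes were named; of other lists, at most 3 genes with the best-ranked start-site peaks, and others are said to be chosen later. A few genes that this rule or the counts would name are not reported here. Members and lists were chosen with earlier results of these data known. Alternatives were start-site distance, flank, peak strength, peak number, outermost starts and merging distance.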

Additional observations from a re-analysis of the deposited data

How the results depend on the processing

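Over 12 alternative settings, 204 values were recomputed and 196 stayed within 1.5 times the reported value, among them the count of erythroid genes per library under every setting that was run. The first place of ATAC1 and ATAC4 was shared with ATAC6 with outer regions (5 genes each) and with flanks of 20 kb (7 each). ATAC1 stood first alone under other settings. At a fold of at least 5, ATAC4 and ATAC6 had 4 each against 5 in ATAC1. At a start-site distance of 500 bases, ATAC4 had 4 and ATAC6 had 3, again against 5 in ATAC1. The 8 values that moved were counts of libraries for single genes. With a start-site distance of 500 bases, Epor had a start-site peak in 1 library, since its intron region lies farther in. With 2000 bases, Klf1 had one in 7 libraries and Alas2 in 2. Klf1 kept 1 library at a fold of at least 5 and had 5 when outer regions stood for peaks. With an equal number of best-ranked peaks in each library, Epor had 3. With flanks of 20 kb, Gata1 and Alas2 each had a peak in 7 libraries, which for Gata1 includes the peaks about 11180 bases away. No paired analysis was possible because no library had a replicate or a partner, and none could be left out in turn for the same reason. A region without a peak may still be open below the calling limit, and reads outside peaks were not analysed here.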
